A study of Mus musculus with 2 samples.

Results

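Antioxidant enzymes, the glutathione system and targets of the transcription factor NRF2 were followed as a module of 33 genes, listed by symbol with earlier results of these data known and found by those symbols. All 33 were among the 17087 genes in the table of counts. They comprise NRF2 itself (Nfe2l2) and its inhibitor Keap1, the haem and quinone enzymes Hmox1 and Nqo1, 6 genes of cystine uptake and glutathione synthesis and recycling, 3 superoxide dismutases with catalase, 3 glutathione peroxidases, 6 peroxiredoxins with sulfiredoxin, 3 thioredoxin genes, 4 glutathione S-transferases and the 2 ferritin chains. The study compared retinas of male C57BL/6J mice made diabetic with streptozotocin (STZ), a toxin of pancreatic beta cells, with retinas of untreated C57BL/6 mice. STZ was given intraperitoneally at 55 mg/kg to mice 3 to 5 weeks old, diabetes was defined by blood glucose above 300 mg/dL, and high glucose lasted 25 weeks. Cells of 3 retinas were pooled in each group and made into 1 library by droplet capture and counting of transcript 3′ ends, so each group is 1 sample. With 1 library per group no test was possible. A difference below compares 2 libraries, and its 95% interval covers counting error only, not variation between animals.

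In this pathway NRF2 is held in the cytoplasm and marked for degradation by KEAP1, and oxidants or electrophiles release it to bind antioxidant response elements together with small MAF proteins. Its targets make and recycle glutathione, reduce peroxides through peroxiredoxins and thioredoxin, conjugate electrophiles and store iron in ferritin. The retina is known for high oxygen use in photoreceptors, and Müller glia, its main glial cell, are known as a source of glutathione for neurons.

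The core of the antioxidant response element, TGACNNNGC, was searched on both strands of the 250 bases before the annotated start of each gene, in RefSeq promoters of GRCm38.p6. Of the 27 members with an entry, 6 held it (Gclm, Gstm5, Nfe2l2, Prdx1, Sod1 and Txnrd1), while 11.52% of all 27025 genes did. Prdx6, Hmox1, Gclc, Sod3, Gsta4 and Gsr had no entry. The match is a description of letters and not a bound site. The matches of 3 members are shown because Nfe2l2 and Gclm carry differences between the libraries described below and Prdx1 is a glial member with a match. Each is written 5′ to 3′ along its gene, with the core in capitals. It lies 240 to 232 bases before the start in Nfe2l2 (chr2:75704875-75704913, minus strand), 134 to 126 bases before it in Gclm (chr3:122245403-122245451, plus strand) and 133 to 125 bases before it in Prdx1 (chr4:116685446-116685494, plus strand). In Gclm and Prdx1 the core reads on the strand opposite to the gene.
Nfe2l2: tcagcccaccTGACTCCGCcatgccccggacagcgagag
Gclm: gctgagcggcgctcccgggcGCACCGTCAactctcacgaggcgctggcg
Prdx1: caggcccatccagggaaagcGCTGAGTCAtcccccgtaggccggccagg

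The table held 7169 control and 12393 STZ cells with medians of 3800 and 2062 unique molecular identifiers (UMIs, 1 per captured transcript). Filters on genes, mitochondrial counts and doublets kept 5288 and 8232 cells. Clusters were named from marker genes with the ending -like, and 9 classes had at least 50 cells in both libraries. They ranged from 53 pigment epithelium-like and 56 amacrine-like cells to 1257 cone bipolar-like cells in control. Microglia-like cells, 43 in control and 114 in STZ, are described apart. A cluster of 17 control and 1729 STZ cells whose leading genes included the rod genes Gnat1 and Gnb1 stayed unnamed because none of the class markers met the rule for leading it, and is in no class. Another 2 clusters, nearest to Müller glia (141 and 130 cells, 59 and 91 cells), stayed unnamed for their low UMIs with none of its markers among their top genes. The member Gsta4 was a top gene of the cluster of 59 and 91 cells. A cluster of 0 control and 41 STZ cells, nearest to endothelial cells, also stayed unnamed. Its top genes included the leukocyte markers S100a9 and S100a8. In 8 of the 9 classes the median mitochondrial share was higher in STZ, most in endothelial-like (5.57% and 12.4%) and pigment epithelium-like cells (4.75% and 10.1%), and median UMIs of endothelial-like cells were 3170 in control and 944 in STZ. The part of these differences in the results was not tested. Members were not used to form the clusters.

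Levels are given in CPM, the usual scaling of a gene's UMIs by all UMIs of the class and library, which for 3′ counting do not scale with transcript length. To count as measured, a member needed 10 CPM and 20 UMIs in a class over both libraries together, which 217 of the 297 pairs of member and class met. The number measured ran from 19 in pigment epithelium-like to 31 in Müller glia-like cells, and 16 members were measured in all 9 classes. Hmox1, which breaks down haem, was measured in none of the 9. For 23 of the 33 members the same class had the highest level in both libraries, namely Müller glia-like cells for 9, pigment epithelium-like for 7, amacrine-like for 3, and endothelial-like and pericyte or smooth muscle-like cells for 2 each. In 11 of the 23 the counting interval of the highest class lay above that of the next class in both libraries.

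**Figure D1:**
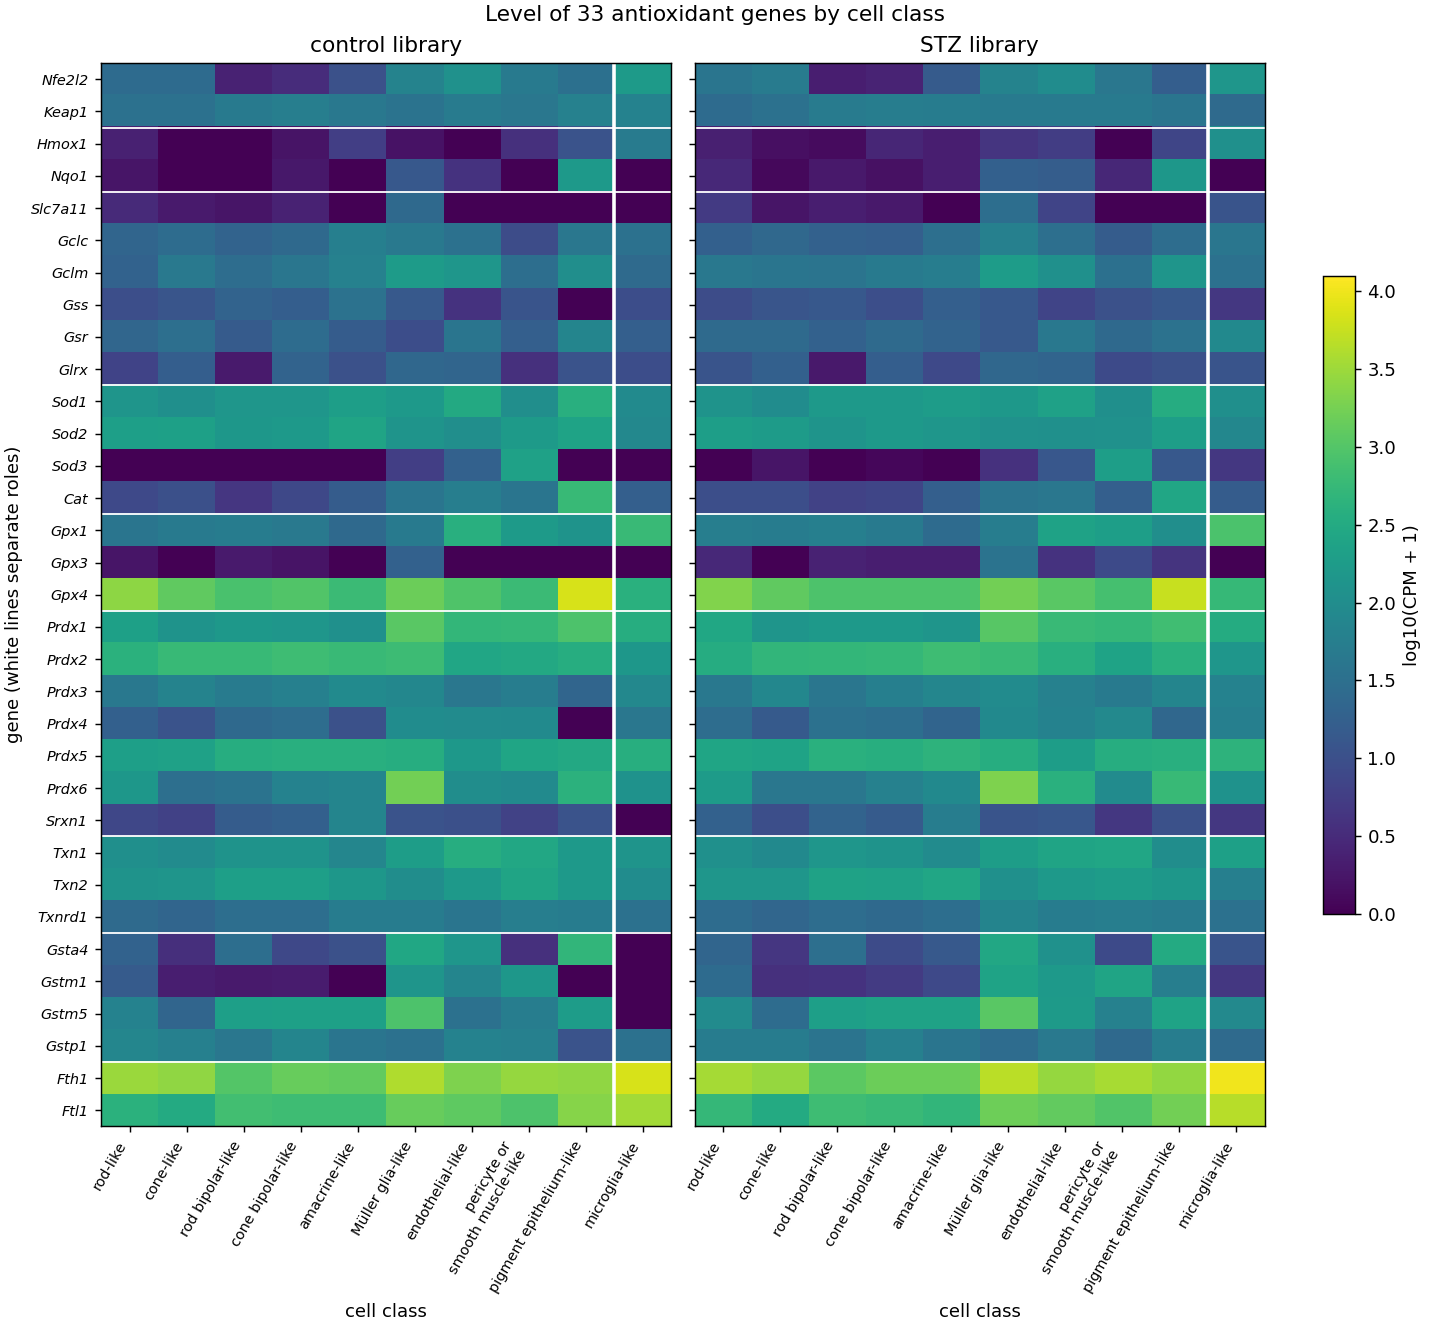
Colour gives the level, log10(CPM + 1), of each of the 33 members (vertical axis, white lines between roles) in the 9 cell classes and, right of the thick line, microglia-like cells (horizontal axis), with the control library in the left panel and the STZ library in the right. Prdx6, Gstm5 and Slc7a11 stood highest among the 9 classes in Müller glia-like cells, Cat, Nqo1 and Gpx4 in pigment epithelium-like cells, and Sod3 in pericyte or smooth muscle-like cells, in both libraries.

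Müller glia-like cells had the highest levels of Prdx6, Gstm5, Gpx3, Slc7a11 and Fth1 among the 9 classes. Prdx6, a peroxiredoxin that also repairs membrane lipids, had 11168 UMIs in control and 9190 in STZ, or 1668 and 2022 CPM, 1.21-fold higher (interval 1.18 to 1.25). The next class, pigment epithelium-like cells, was at 436 and 585 CPM. Gstm5, a glutathione S-transferase, was at 889 and 1123 CPM in Müller glia-like cells and at no more than 236 CPM in any other of the 9 classes. The xCT cystine antiporter Slc7a11 was measured in no other class and stood there at 24.4 and 28.8 CPM. Gclm, the modifier subunit of the enzyme that starts glutathione synthesis, was also highest in these cells, at 175 and 186 CPM, though its interval overlapped that of the next class in both libraries.

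Pigment epithelium-like cells had the highest Cat, Nqo1 and Gpx4. Catalase (Cat), the peroxisomal enzyme that splits hydrogen peroxide, stood at 571 CPM in the control library and 261 in the STZ library, against 56.4 and 40.7 CPM in endothelial-like cells, the next class. The quinone reductase Nqo1 was at 166 and 148 CPM and, apart from Müller glia-like cells at 12.7 and 17.2 CPM, was measured nowhere else. Gpx4, which reduces lipid peroxides and protects from ferroptosis, was at 7188 and 5750.1 CPM there, and rod-like cells came next with 2525 and 2119.8 CPM. The ferritin light chain Ftl1 (2296 and 1715 CPM) and the copper-zinc superoxide dismutase Sod1 (384 and 349 CPM) were also highest in these cells.

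The extracellular superoxide dismutase Sod3 was measured only in pericyte or smooth muscle-like cells, at 219 and 199 CPM, while the next class had 17.8 CPM in the control library and 12.6 in the STZ library. Srxn1, which reactivates oxidised peroxiredoxins, stood highest in amacrine-like cells at 71.7 and 54.3 CPM, above 17.2 and 19.3 CPM in the next class. Nfe2l2 was highest in endothelial-like cells at 116 and 96.4 CPM, followed by Müller glia-like cells at 67.8 and 66.2 CPM. It was lowest in rod bipolar-like cells, at 1.46 and 1.19 CPM, and in cone bipolar-like cells it stood at 2.28 and 1.596 CPM. In microglia-like cells it was at 173 and 141 CPM. Keap1, its inhibitor, was spread evenly by comparison, between 32.4 and 62.3 CPM in control and between 25.7 and 53.4 CPM in STZ over the 9 classes.

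The other members differed less between classes, or their highest class had few UMIs. Among glutathione genes, Gss was highest in amacrine-like cells at 33.5 and 16.5 CPM, and Gclc was highest there in control (57.4 CPM) and in Müller glia-like cells in STZ (60.1 CPM). Gsr was highest in pigment epithelium-like cells in control (72.7 CPM) and in endothelial-like cells in STZ (42.2 CPM), with intervals that overlapped the next class. Of the mitochondrial members, Sod2 was at 207 and 198 CPM in rod-like cells, the highest class in STZ, and Prdx3 at 79.2 and 92.4 CPM in Müller glia-like cells.

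Prdx4 was highest in Müller glia-like cells at 96.5 and 86.5 CPM, and Prdx5 in amacrine-like cells at 387 and 450 CPM. The thioredoxin Txn1 was highest in vascular classes, with 353 and 247 CPM in endothelial-like and 286 and 267 CPM in pericyte or smooth muscle-like cells. Txn2 in the latter was at 251 and 184 CPM, and Txnrd1 in Müller glia-like cells at 52.3 and 70.2 CPM.

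Over the 9 classes, 14 of the 217 pairs were at least 1.5-fold higher in STZ, where 9.55% of all pairs of measured gene and class were, and 12 were at least 1.5-fold lower, where 8.52% were. Both shares were below those of all genes. For 12 of the higher and 7 of the lower pairs the interval left out 1. The pairs that were higher involved 11 members and those lower 9. The median log2 ratio of the measured members lay between -0.17 in pigment epithelium-like and 0.20 in rod-like cells, and that of all measured genes between -0.04 and 0.03. Most of the module therefore stood within 1.5-fold of control in every class. Gstm1 was at least 1.5-fold higher in each of the 4 classes where it was measured. Gpx3, measured in 1 class, was also past 1.5-fold there.

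**Figure D2:**
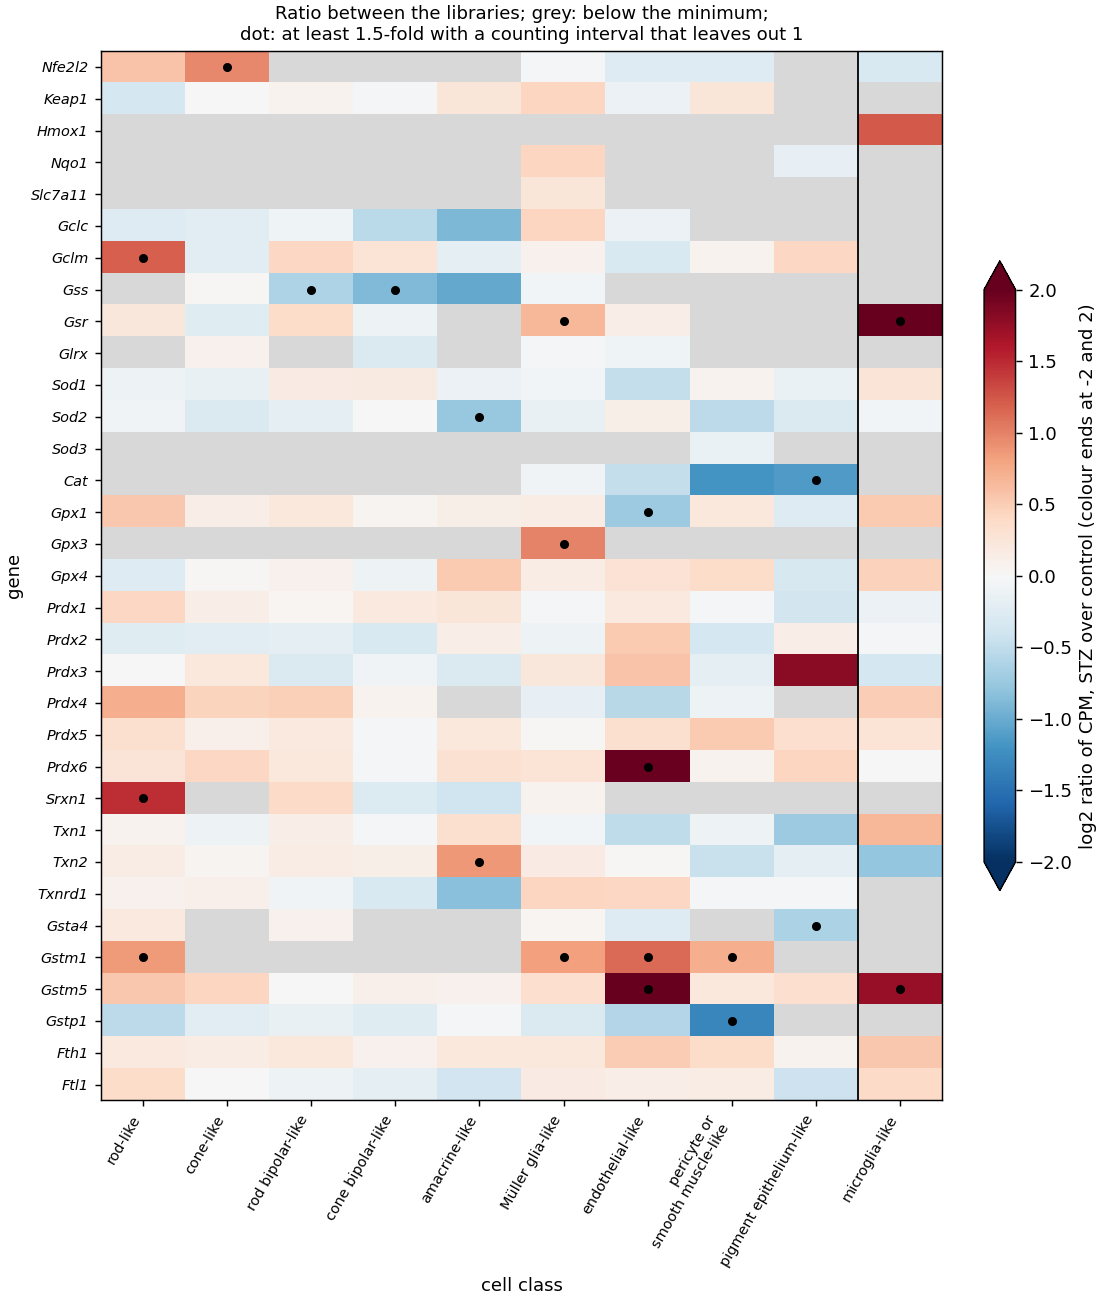
Colour gives the log2 ratio of STZ over control of each member (vertical axis) in each class (horizontal axis), red for higher in STZ and blue for lower, with grey where a member was below the minimum and a dot where it was at least 1.5-fold apart with an interval that left out 1. Gstm1 has dots in all 4 classes where it was measured, and most other fields are pale.

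In Müller glia-like cells 3 of 31 measured members were at least 1.5-fold higher in STZ, where 4.78% of all measured genes were, and 0 were lower, where 2.90% were. The 3 are a larger share than the background, but on few members. Gsr, counted among the 3, was under the 10 CPM minimum in control and met it only through the STZ library. The larger share rests in part on that entry and is not read as a result. The members' median log2 ratio was 0.15 against 0.03 for all genes, and the libraries were alike in this class in median depth (6069.5 and 5927 UMIs) and mitochondrial share (9.51% and 10.0%). Gstm1, a transferase that conjugates glutathione to electrophiles, had 911 UMIs in control and 1095 in STZ, or 136 and 241 CPM, 1.77-fold higher in STZ (1.62 to 1.94). Both Müller clusters showed it, at log2 0.92 and 0.74. Gpx3, a secreted glutathione peroxidase, had 119 and 161 UMIs (17.8 and 35.4 CPM), 1.99-fold higher (1.56 to 2.55), and Gsr, which regenerates reduced glutathione, had 55 and 59 UMIs (8.22 and 12.98 CPM), 1.58-fold higher (1.08 to 2.32).

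Each of the 3 was smaller, or turned, with every cell thinned to 500 UMIs. Median depth was already alike in this class, so thinning mainly left fewer UMIs and cannot show a part of depth. Log2 was then 0.49 for Gstm1 (78 and 79 UMIs) instead of 0.82, and 0.055 for Gpx3 (8 and 6 UMIs) instead of 0.99. Gsr was then lower in STZ, at -0.95, on 8 and 3 UMIs. Some other members were higher in STZ in this class by under 1.5-fold, with intervals that left out 1. Among them were Gstm5 (1.26-fold), Prdx6, Fth1 (1.16-fold), Txnrd1 (1.34-fold), Keap1 (1.35-fold) and Gclc (1.35-fold). With thinned cells Gclc did not keep that direction (log2 -0.054 instead of 0.43, on 23 and 16 UMIs), and Txnrd1 was at 0.19 instead of 0.42. Gclc, the catalytic subunit of the glutathione-starting enzyme, was at 44.5 and 60.1 CPM, while its partner Gclm differed by 1.06-fold, with an interval (0.967 to 1.16) that included 1. Nfe2l2 also stood alike, 1.02-fold lower (0.883 to 1.19). Prdx1, a cytosolic peroxiredoxin, was at 1120 and 1096 CPM, an interval of 0.985 to 1.06 for a fold of 1.02 lower.

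In cone-like cells 1 of 24 measured members was higher in STZ, where 5.08% of all measured genes were, and 0 were lower, where 3.05% were. The share was near the background. The member was Nfe2l2, which had 109 UMIs in 101 of 777 control cells and 207 UMIs in 186 of 893 STZ cells, or 26.0 and 50.4 CPM, 1.94-fold higher (1.53 to 2.47). The log2 ratio lay between 0.91 and 1.29 in all 7 alternative settings. The markers of Müller glia in cone-like cells stood at a median of 0.70% of their own level in control and 0.67% in STZ, so that measure did not move with it. In rod-like cells Nfe2l2 was at 26.3 and 38.9 CPM, 1.48-fold higher, with an interval (0.965 to 2.30) that included 1, and both rod clusters were higher. Of 19 other NRF2 targets and partners measured in cone-like cells, 1 was at least 1.5-fold higher and 1 lower. Among the members, Gclm was 1.17-fold lower (0.944 to 1.46) and Txnrd1, the thioredoxin reductase, was 1.07-fold higher (0.786 to 1.45).

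In rod-like cells 4 of 25 measured members were at least 1.5-fold higher, where 7.24% of all measured genes were, and 0 were lower, where 9.57% were. The share higher was above that of all genes, and the members' median was 0.20 against -0.04. Srxn1, counted among the 4, was under both minima in control and met them only through the STZ library. The share higher rests in part on that entry and is likewise not read as a result. Gclm had 26 UMIs in control and 64 in STZ, or 18.5 and 42.2 CPM, 2.28-fold higher (1.43 to 3.76), with log2 of 1.34 and 1.10 in the 2 rod clusters. Srxn1 had 9 and 27 UMIs (6.40 and 17.8 CPM), 2.78-fold higher (1.27 to 6.73). Gstm1 had 20 and 39 UMIs (14.2 and 25.7 CPM), 1.81-fold higher (1.03 to 3.28), but in the 1 rod cluster with enough UMIs its log2 was 0.44, under 1.5-fold. That cluster held 272 of the control and 612 of the STZ cells, and the other rod cluster 376 and 409. For Prdx4, a peroxiredoxin of the endoplasmic reticulum, the fold was 1.66 with an interval of 0.987 to 2.86. All 4 rest on few UMIs.

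Markers of Müller glia stood in rod-like cells at a median of 4.78% of their own level in control and 4.61% in STZ, summing over the 11 markers to 1859 and 1926 CPM with none at 0. Gstm1 in rod-like cells was at 10.4% of the Müller level in control and 10.7% in STZ, so its ratio between the libraries was close to that in Müller glia-like cells. Gclm went from 10.5% to 22.8% of the Müller level. Taking the Müller profile off gave Gclm a log2 of 1.73 instead of 1.19, while thinning to 500 UMIs gave 0.46 (6 and 13 UMIs) and the mean over cells 0.54. The more abundant photoreceptor members stood nearer to control. Gpx4 was 1.19-fold lower in rod-like cells (1.14 to 1.25), lower in both rod clusters, and 1.02-fold higher in cone-like cells, and Prdx1 was 1.33-fold higher in rod-like cells (1.15 to 1.55), with opposite directions in the 2 rod clusters (log2 -0.11 and 0.46).

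**Figure D3:**
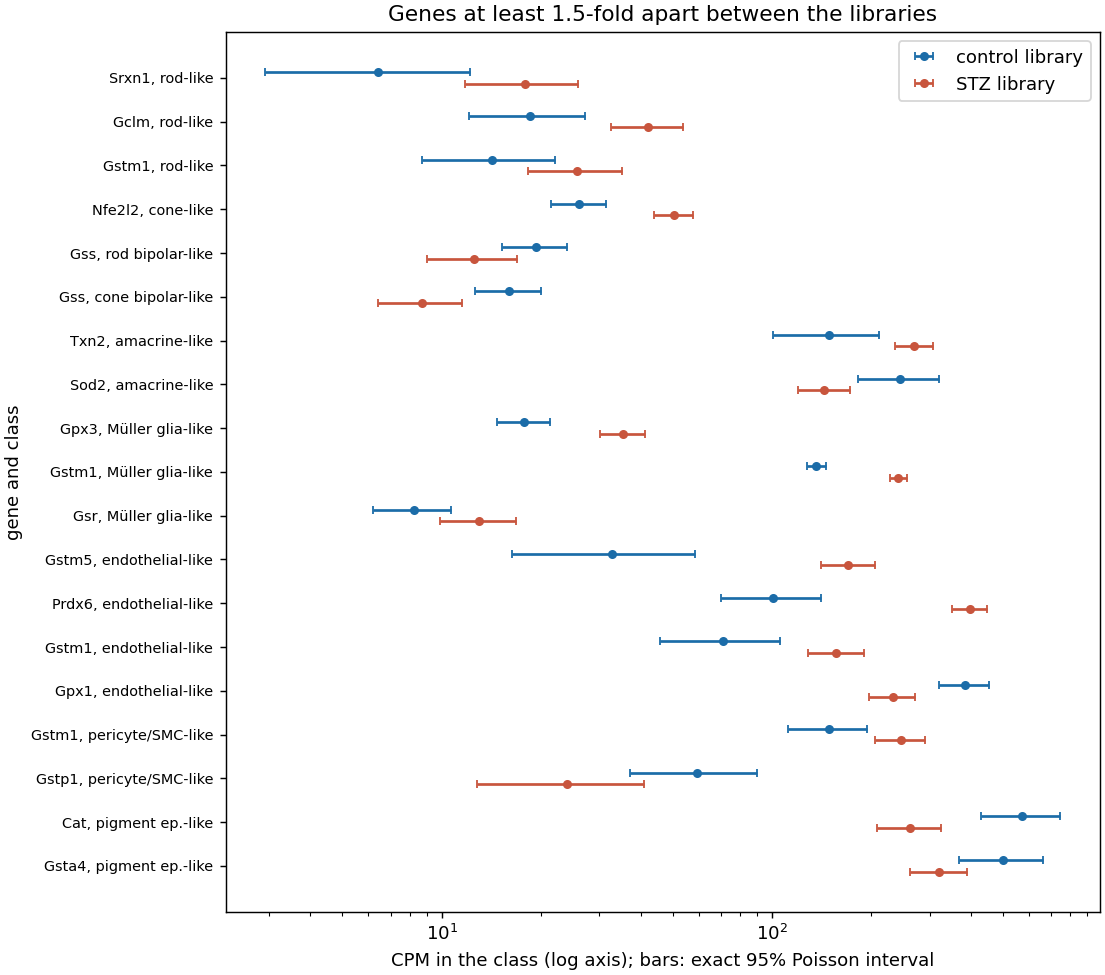
Points give the level in CPM (log axis) in the control library (blue) and the STZ library (red) of each member at least 1.5-fold apart with an interval of the ratio that left out 1, by class, and bars are exact Poisson 95% intervals for counting error. Nfe2l2 in cone-like cells was at 26.0 CPM in control and 50.4 in STZ, and Gstm5 in endothelial-like cells at 32.7 and 170 CPM, with bars that did not overlap.

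In both bipolar classes the member past 1.5-fold was Gss, the enzyme of the last step of glutathione synthesis, and it was lower in STZ. It was 1 of 24 measured members in rod bipolar-like cells, where 5.85% of all measured genes were lower, and 1 of 24 in cone bipolar-like cells, where 3.95% were. In each, 0 members were higher, where 4.90% and 3.75% of all genes were, so the counts did not stand out from the background. Gss had 79 and 42 UMIs in rod bipolar-like cells (19.2 and 12.5 CPM), 1.54-fold lower (1.05 to 2.30), and 77 and 49 UMIs in cone bipolar-like cells (16.0 and 8.69 CPM), 1.84-fold lower (1.27 to 2.69). In the thinned rod bipolar-like cells it was 0.16 higher on the log2 scale, on 6 UMIs in each library, while the cone bipolar value stayed between -1.84 and -0.85 in all 7 alternatives. Gss overlaps Acss2 on the opposite strand. In amacrine-like cells Gss was 2.03-fold lower on 7 and 14 UMIs (0.692 to 5.36), whereas in cone-like cells it was 1.02-fold higher (0.663 to 1.57) and in Müller glia-like cells 1.04-fold lower (0.736 to 1.49).

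Prdx2, a cytosolic peroxiredoxin abundant in neurons, was lower in STZ in the cone bipolar-like class, with 662 and 537 CPM (1.23-fold, 1.17 to 1.295). It was lower in each of the 7 cone bipolar clusters, by log2 -0.62 to -0.19. It was also lower in rod-like (1.18-fold), cone-like (1.15-fold) and rod bipolar-like cells (1.13-fold), each with an interval that left out 1, and higher in endothelial-like cells (1.44-fold, 1.13 to 1.86). Prdx2 overlaps Junb, an immediate-early gene, and Rnaseh2a on the opposite strand. Gclc in cone bipolar-like cells was 1.46-fold lower (1.10 to 1.94), and lower in the 4 clusters with enough UMIs, while Gclm was higher in 6 of 7 clusters and by 1.21-fold in the class (1.002 to 1.46).

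In amacrine-like cells, with 56 control cells, 1 of 21 measured members was higher, where 15.7% of all measured genes were, and 4 were lower, where 14.0% were. With 4 of 21, the lower members were not far from the share of all genes. Txn2, the mitochondrial thioredoxin, had 31 and 228 UMIs (148 and 269 CPM), 1.82-fold higher (1.24 to 2.74). Sod2, the mitochondrial superoxide dismutase, had 51 and 122 UMIs (244 and 144 CPM), 1.69-fold lower (1.20 to 2.37). These 2 mitochondrial members therefore stood in opposite directions. Beside Gss, Gclc (1.87-fold) and Txnrd1 (1.78-fold) were lower with intervals that included 1.

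In endothelial-like cells 3 of 26 measured members were higher, where 20.3% of all measured genes were, and 1 was lower, where 17.6% were. The members' shares were below those of all genes. Gstm5 had 11 and 113 UMIs (32.7 and 170 CPM), 5.21-fold higher (2.81 to 10.7). Prdx6 had 34 and 264 UMIs (101 and 398 CPM), 3.94-fold higher (2.75 to 5.81), and Gstm1 had 24 and 104 UMIs (71.2 and 157 CPM), 2.20-fold higher (1.40 to 3.59). Gpx1, the cytosolic glutathione peroxidase, was highest of the 9 classes in these cells and had 129 and 154 UMIs (383 and 232 CPM), 1.65-fold lower (1.296 to 2.10).

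The markers of Müller glia moved with the members that were higher in endothelial-like cells. Their median level there was 1.63% of that in Müller glia-like cells in control and 9.01% in STZ, ranging over the 11 markers from 0% to 85.8% and from 3.97% to 72.8%. Vim, which endothelial cells express themselves, was the highest in both, Kcnj10 was at 0 in control and no marker was at 0 in STZ, and the 11 summed to 2550 and 6226 CPM. Rod markers went from 2.80% to 7.03% of their rod level and cone markers from 1.502% to 6.97%. Prdx6 went from 6.05% to 19.7% of its Müller level and Gstm5 from 3.67% to 15.2%, both above the marker median in each library. They were not above every marker. Apoe (3.98% and 16.7%) was above Gstm5 in both libraries. Glul (7.82% and 14.6%) was above Prdx6 in control, while in STZ only Vim was. With the Müller profile taken off, scaled to the marker median, log2 was 1.66 for Prdx6 instead of 1.98 and 2.04 for Gstm5 instead of 2.38.

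Other settings moved the endothelial values more. For Prdx6 log2 was 0.69 under a stricter filter on cells (500 genes or more, mitochondrial share up to 10%), 0.83 with doublets kept and 0.79 at the lower clustering resolution. For Gstm5 the 3 values were 1.37, 1.03 and 1.03, and for Gstm1 0.92, 0.66 and 0.68 instead of 1.14. Other settings gave larger ratios. Gstm5 was at 3.56 with the mean over cells and 3.40 with free RNA taken off, Gstm1 at 2.17 with thinned cells (2 and 39 UMIs) and Prdx6 at 2.35 with thinned cells (6 and 133 UMIs). All stayed at least 1.5-fold higher in STZ. The free RNA setting took off the same 5% share in both libraries, though the marker share in this class differed between them. It therefore widens the ratio of Gstm5, which was low in control, and cannot show whether free RNA has a part. Gpx1 stayed lower in all 8 alternatives, between -1.04 and -0.51. Other endothelial members with an interval that left out 1 were Sod1 (1.38-fold lower), Txn1, the cytosolic thioredoxin (1.43-fold lower), and Fth1, the ferritin heavy chain (1.42-fold higher).

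**Figure D4:**
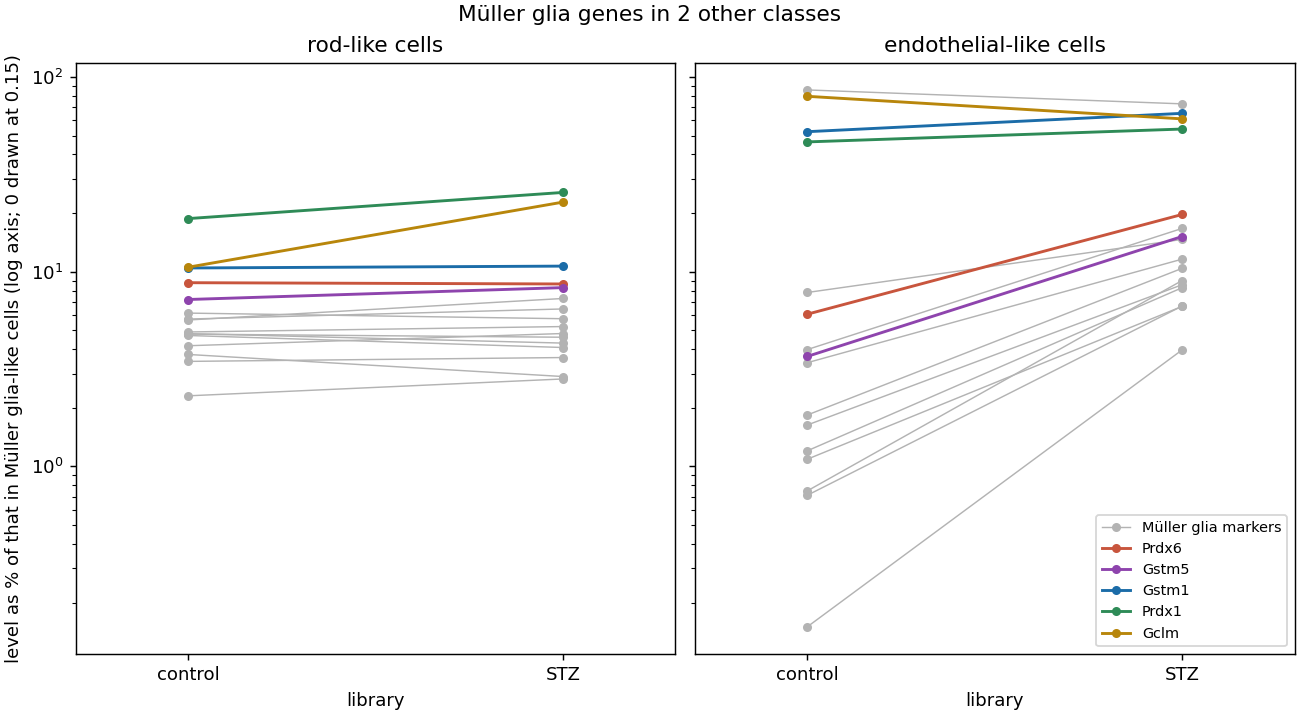
Lines join control and STZ for the 11 Müller glia markers (grey) and 5 members (coloured) in rod-like cells (left) and endothelial-like cells (right), as a percentage of the level in Müller glia-like cells on a log axis, where a level of 0 is drawn at the bottom. In endothelial-like cells the marker median went from 1.63% to 9.01% and Prdx6 from 6.05% to 19.7%, while in rod-like cells the marker median was 4.78% and 4.61%.

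In pericyte or smooth muscle-like cells 1 of 23 measured members was higher, where 13.2% of all measured genes were, and 2 were lower, where 10.9% were. Neither share was above that of all genes. Gstm1, highest in this class in both libraries, had 55 and 133 UMIs (148 and 245 CPM), 1.65-fold higher (1.20 to 2.30). Gstp1, another glutathione S-transferase, had 22 and 13 UMIs (59.4 and 24.0 CPM), 2.48-fold lower (1.19 to 5.36). Thinning left 1 and 2 UMIs of Gstp1 and a log2 of 0.34, the opposite direction. Cat was 2.28-fold lower with an interval (0.919 to 5.97) that included 1.

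Gstp1 was lower in STZ in all 8 classes where it was measured, also when classes were scaled by the median ratio of their genes, but by less than 1.5-fold in 7 of them. In rod-like cells it was at 74.7 and 52.1 CPM, 1.43-fold lower (1.06 to 1.94), and with thinned cells it was higher there (log2 0.21). The neighbouring copy Gstp2 had 33 UMIs in the table, and the related genes Gstm2, Gstm6 and Gstm7 had 43, 141 and 566. How reads were assigned among such genes was not tested for Gstp1, Gstm1 or Gstm5. Gstm5 was higher in all 9 classes, from 1.002-fold in rod bipolar-like cells upward.

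In pigment epithelium-like cells, with 53 control cells, 1 of 19 measured members was higher, where 23.2% of all measured genes were, and 3 were lower, where 18.2% were. Both shares were below those of all genes. Cat had 55 and 83 UMIs, 2.19-fold lower in STZ (1.53 to 3.11), and was lower in all 6 alternatives, from -1.55 to -0.86 on the log2 scale. Gsta4, which conjugates the lipid peroxidation product 4-hydroxynonenal, had 48 and 102 UMIs (499 and 321 CPM), 1.55-fold lower (1.08 to 2.21), with 56.25% of the control UMIs in 5 cells. Rod markers in this class stood at 4.65% and 9.43% of their rod level and Müller markers at a median of 3.95% and 10.1%, from 0% to 204% in control, where 2 of 11 were at 0, and from 4.94% to 167% in STZ, where none was. Their part in the lower values was not tested. Gpx4 was 1.25-fold lower (1.14 to 1.37) and Ftl1 1.34-fold lower (1.14 to 1.57). In control, 5 cells held 36.4% of the Cat UMIs, 34.7% of the Gpx4 UMIs and 34.4% of the Ftl1 UMIs. The counting intervals leave out such a spread between cells. The log2 of Gpx4 was -0.32, but -0.55 with thinned cells and -0.17 at the lower clustering resolution. Txn1 (1.65-fold lower, on 16 and 32 UMIs) and the mitochondrial peroxiredoxin Prdx3 (3.48-fold higher, on 2 and 23 UMIs) had intervals that included 1.

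Fth1, which oxidises iron for storage in ferritin, was higher in STZ in all 9 classes by log2 0.07 to 0.50, under each class's total and under median-ratio scaling. The ratio stayed under 1.5-fold throughout, and in pigment epithelium-like cells the interval (0.910 to 1.21) included 1. Within clusters it was not uniform. Both Müller clusters were higher, but only 1 of 2 rod clusters and 4 of 7 cone bipolar clusters were. Ftl1 was higher in 4 classes and lower in 5. Its copy Ftl1-ps1 had 255 UMIs.

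The remaining members stayed within 1.5-fold in every class where they were measured. They were Keap1, Nqo1, Slc7a11, Glrx, Sod1, Sod3, Gpx4, Prdx1, Prdx2, Prdx5, Fth1 and Ftl1. Prdx5, a peroxiredoxin found in mitochondria and peroxisomes, was higher in 8 of 9 classes, with its widest ratio in pericyte or smooth muscle-like cells (1.43-fold, 1.11 to 1.85). Glrx, the glutaredoxin that removes glutathione from proteins, was measured in 4 classes and was highest in Müller glia-like cells at 22.7 and 22.4 CPM.

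Microglia-like cells, the resident macrophages by their markers, had 43 control cells. There 4 of 18 measured members were higher, where 13.9% of all measured genes were, and 1 was lower, where 21.9% were. Hmox1, Gsr and Gstm5, counted among those higher, were under the UMI minimum in control and met it only through the STZ library. The share higher rests in part on these entries and is likewise not read as a result. Fth1 stood at 7084 and 10260.0 CPM, Ftl1 at 3451 and 4524 CPM and Gpx1 at 610 and 872 CPM, with intervals above those of all 9 other classes in both libraries. Each of the 3 was higher in STZ, by 1.45-fold (1.34 to 1.57), 1.31-fold (1.17 to 1.47) and 1.43-fold (1.10 to 1.88). Hmox1 was measured here alone, with 6 and 32 UMIs (49.4 and 115 CPM), 2.33-fold higher with an interval (0.963 to 6.83) that included 1. Gsr had 2 and 24 UMIs, 5.25-fold higher (1.304 to 45.8). Gstm5, a gene of Müller glia above, had 0 and 23 UMIs. Its ratio of 3.36-fold higher rests on the 3 counts set in place of 0 in control and is not a lower bound.

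The other genes of the pathway were taken from 5 lists. Of 36 further NRF2 targets and partners, 24 were measured in Müller glia-like cells, where 2 were higher and 1 lower (4.78% and 2.90% of all genes), with a median log2 of -0.09. In pigment epithelium-like cells 15 were measured, 3 higher, near the 23.2% of all genes, and 7 lower, above the 18.2% of all genes, with a median of -0.55 against -0.00 for all genes. Only 3 of the 7 lower and 2 of the 3 higher had an interval that left out 1. The medians of the interval ends over the 15 genes were -1.47 and 0.40 on the log2 scale. There Gsta2, an alpha-class transferase, was 2.79-fold lower (1.51 to 5.13, 22 and 26 UMIs), Ephx1, an epoxide hydrolase, 2.02-fold lower (1.08 to 3.70), and Gsta1 2.12-fold lower with an interval (0.810 to 5.26) that included 1. Sqstm1, the autophagy receptor that binds KEAP1, was 1.73-fold higher in amacrine-like cells (1.14 to 2.72), and Aox1, an aldehyde oxidase, 1.69-fold higher in Müller glia-like cells (1.16 to 2.47). Blvrb, a biliverdin reductase, was 1.59-fold higher in pericyte or smooth muscle-like cells with an interval (0.938 to 2.80) that included 1.

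Mafg, a small MAF partner of NRF2 singled out after its values were seen, was lower in 4 classes. In rod bipolar-like cells, where it was highest, it had 385 and 189 UMIs (93.7 and 56.2 CPM), 1.67-fold lower (1.40 to 1.996). It was 1.68-fold lower in cone bipolar-like, 1.65-fold lower in cone-like and 1.74-fold lower in Müller glia-like cells, each with an interval that left out 1. In cone-like cells its direction was thus opposite to that of Nfe2l2.

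Among 37 other glutathione and thiol enzymes, Müller glia-like cells had 29 measured, 1 higher and 0 lower (4.78% and 2.90% of all genes), with a median of -0.05, and rod-like cells 20 measured, 2 higher and 0 lower (7.24% and 9.57% of all genes). The methionine sulfoxide reductase Msrb2 was 3.41-fold lower in endothelial-like cells (1.74 to 6.94, 26 and 15 UMIs), and Chac2, which degrades glutathione, was 2.48-fold lower in amacrine-like cells (1.06 to 5.53). Ggt1, which cleaves extracellular glutathione, was 1.71-fold lower in pigment epithelium-like cells and Slc25a40 1.56-fold higher in amacrine-like cells, with intervals that included 1. Of 17 genes of selenoproteins and selenocysteine synthesis all 17 were measured in Müller glia-like cells and none was past 1.5-fold, with a median of 0.02. Selenoi in pigment epithelium-like and Selenoo in amacrine-like cells were 1.89-fold and 1.82-fold lower with intervals that included 1.

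Of 18 iron genes beside ferritin, 11 were measured in endothelial-like cells, 2 higher and 4 lower (20.3% and 17.6% of all genes), with a median of -0.33 against -0.01 for all genes. Slc40a1, the iron exporter ferroportin, was 1.65-fold lower there (1.10 to 2.48, 47 and 56 UMIs). Slc48a1, a haem transporter, was 1.67-fold lower in pigment epithelium-like cells (1.08 to 2.55), and Ireb2, an iron-sensing RNA-binding protein, was 1.73-fold lower there with an interval (0.753 to 3.75) that included 1. Of 11 NADPH oxidase genes listed, no more than 3 were measured in any of the 9 classes.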

How the data were processed

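The authors deposited 1 table of whole-number UMI counts, 17087 genes by 19562 cells, whose cell names end in the library. Cell Ranger 3.0.1, Seurat 3.0 and mm10 are named in the submitters' processing notes, and their settings are not given in the sources used here. The most genes in a cell was 2999 and the fewest UMIs 499, and 21 barcodes occurred in both libraries. Libraries held 27279124 (control) and 33178623 (STZ) UMIs.

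The filter kept cells of 200 genes or more whose mitochondrial share was 20% or less (1844 control and 3533 STZ cells exceeded that share). Scrublet in scanpy 1.11.5 removed 37 control cells by its automatic threshold, which called 0.0% in STZ, where the top 628 scores were removed. Clustering used 2000 variable genes without the members, the pathway lists or mitochondrial genes, log values of 10000 counts per cell scaled per library, 15 neighbours in 30 principal components, and Leiden clusters at resolution 1.0. A marker led a cluster when in at least 10% of its cells, 1.5-fold over other cells and at 25% of the highest level in any cluster. Clusters were given the class with the most leading markers, at least 3, and no name where the top genes had more markers of a different class, or where UMIs were low and no own marker was among the top genes. That rule was set after clusters were seen.

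UMIs were summed per class and library and scaled to CPM. Intervals are 95% exact Poisson for levels and exact conditional binomial for ratios, take UMIs as independent molecules, and were tested on simulated data. A count of 0 was set to 3 for ratios. Called means at least 1.5-fold. Values are given for each member in its highest class, for up to 4 members per class and direction past 1.5-fold with an interval leaving out 1, and for up to 3 genes per other list and direction in their highest class. The members and lists were chosen with earlier results of these data known. A gene that this rule selects is not reported here.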

Additional observations from a re-analysis of the deposited data

How the results depend on the processing

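Counts of pairs past 1.5-fold were recomputed under 8 planned settings and 1 chosen after seeing the data, in which RNA of Müller glia was taken off rod-like and endothelial-like cells. The number higher, 14, became 23 with the mean over cells and 37 with no minimum level for members. The number lower, 12, became 7 under a filter of 500 genes or more and a mitochondrial share up to 10%, and 32 with no minimum. That stricter filter left too few amacrine-like and pigment epithelium-like cells for a value. Its count of 7 therefore leaves out these classes, which held 4 and 3 of the 12 lower pairs, and is not a like-for-like fall. Of 148 alternative ratios of members that were at least 1.5-fold apart, 3 changed direction, all with cells thinned to 500 UMIs, namely Gsr in Müller glia-like cells (-0.95 on the log2 scale), Gss in rod bipolar-like cells (0.16) and Gstp1 in pericyte or smooth muscle-like cells (0.34). They rest on 8 and 3, 6 and 6, and 1 and 2 UMIs. Of 214 alternative ratios of members under 1.5-fold, 22 changed sign, 12 of them with thinned cells, and of 72 class medians 7 did. No paired analysis was possible because each group is 1 library. Few control cells limit the amacrine-like (56), pigment epithelium-like (53) and microglia-like (43) values.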
